A study of Mus musculus with 12 samples.

Results

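Mitochondrial ribosomal proteins are the protein parts of the ribosome inside mitochondria, and 76 genes of this kind were measured among the 18193 genes with a symbol on the arrays. They were chosen by symbol alone, as every gene called Mrpl or Mrps followed by a number on a probe set listed with a single gene, and comprise 47 genes of the large and 29 of the small subunit. The samples were 6 lung tumours that arose spontaneously, set against 6 normal lungs, all of B6C3F1 mice, a hybrid strain used in long-term rodent bioassays, at 2 years of age. Tumours and lungs were collected in a bioassay of the National Toxicology Program, the labels state that no treatment was given and name no engineered allele, and total RNA of frozen tissue was measured on 1 Affymetrix array per sample. Whether the 12 samples are 12 animals is not stated in the labels, so a p-value speaks only of variation among the samples measured.

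All of these proteins are encoded in the nucleus, made on cytosolic ribosomes and imported into mitochondria. There they join the 12S and 16S ribosomal RNAs of the mitochondrial genome and translate the few membrane subunits of the respiratory chain that this genome encodes. The mitochondrial ribosome keeps homologues of bacterial ribosomal proteins and has gained many proteins of its own, and it is bound to the inner membrane where its products are inserted. Cell types of the lung differ in how many mitochondria they hold.

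The promoters of these genes are shown here because 31 of the 76 members rose in tumours (12.2% of all genes did, at an adjusted p under 0.05) and because nuclear respiratory factor 1, ETS factors (such as the GABP complex) and YY1 are known regulators of nuclear genes for mitochondria. Sequences are the 120 bases just before the annotated start, from the RefSeq promoter table of build GRCm38.p6, written 5′ to 3′ on the strand of the gene. Capitals mark GCATGCGC (nuclear respiratory factor 1), ACTTCCGG (ETS) or AAGATGGCG (YY1) on either strand. The first 3 are large subunit genes, and are those of the 10 largest rises that hold a match in this stretch. Mrpl52, Mrpl45, Mrpl12, Mrps25 and Mrps33, also among these rises, have no match in it. Mrps35 and Mrps34, the remaining rises, had no entry in the promoter table and were not searched. The fourth has a divergent member as its neighbour, and the last is a gene that fell and has no match in this stretch either.
Mrpl32, chr13:14613038-14613157, minus strand: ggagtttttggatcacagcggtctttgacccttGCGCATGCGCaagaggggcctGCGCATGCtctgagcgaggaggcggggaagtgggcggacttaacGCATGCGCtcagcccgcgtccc
Mrpl17, chr7:105811088-105811207, minus strand: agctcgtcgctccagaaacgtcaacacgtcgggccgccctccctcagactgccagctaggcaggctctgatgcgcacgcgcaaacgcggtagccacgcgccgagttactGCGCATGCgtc
Mrpl51, chr6:125192080-125192199, plus strand: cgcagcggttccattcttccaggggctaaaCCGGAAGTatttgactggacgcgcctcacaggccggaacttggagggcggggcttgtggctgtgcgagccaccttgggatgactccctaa
Mrps11, chr7:78783011-78783130, plus strand: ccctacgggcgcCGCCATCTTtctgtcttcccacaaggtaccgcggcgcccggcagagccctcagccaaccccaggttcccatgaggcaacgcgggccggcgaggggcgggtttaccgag
Mrps17, chr5:129715377-129715496, plus strand: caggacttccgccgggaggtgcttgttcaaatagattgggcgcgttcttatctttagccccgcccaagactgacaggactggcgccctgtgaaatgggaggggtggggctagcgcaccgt

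Mrpl32, the gene with the largest rise, holds 4 matches to the motif of nuclear respiratory factor 1, of which the pair that begins 87 and 85 bases before the start overlaps in one palindrome. Of the 76 members, 67 had an entry in the promoter table, and the whole window of 250 bases before to 50 after the start was searched. The motif GCATGCGC was present in 8 of the 67 (11.9%), against 3.93% of 17491 protein-coding genes, ACTTCCGG in 12 (17.9%, against 5.69%) and AAGATGGCG in 8 (11.9%, against 2.14%). CACGTG, the E-box bound by Myc, was present in 5 (7.46%, against 8.91%). Among members that rose in tumours 4 of 27 held the first motif, against 4 of 40 among the others, and for ETS the counts were 5 of 27 and 7 of 40. For YY1 they were 3 of 27 and 5 of 40, and for the E-box 3 of 27 and 2 of 40. These are matches of letters only. All of these motifs contain the bases CG, and the median number of CG per window was 21 in members, against 15 over all protein-coding genes. The part of CG content in the higher shares was not tested.

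Many of the genes sit head to head with a neighbour. Of the 67 members with a promoter entry, 23 (34.3%) had another protein-coding gene that starts within 1000 bases upstream on the opposite strand, against 8.48% of all protein-coding genes. Mrpl46 and Mrps11 are such a pair themselves, with starts 42 bases apart, so the stretch printed for Mrps11 runs across the start of Mrpl46. Of the 21 neighbours that are not members themselves 4 rose and none fell (19%), where 12.2% of all genes rose. Of the 9 members that rose and have such a neighbour, 3 had one that rose. They were Ncapd2, a condensin subunit (1.28 ± 0.28, adjusted p = 0.00319) beside Mrpl51, Ska3, a protein of the spindle and kinetochore complex (1.19 ± 0.33, adjusted p = 0.0172) beside Mrpl57, and Tcp1, a subunit of the cytosolic chaperonin (0.54 ± 0.17, adjusted p = 0.0277) beside Mrpl18. Psma2, a proteasome subunit that starts 205 bases from Mrpl32, differed by 0.25 ± 0.12 (adjusted p = 0.162).

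Values are MAS5 signal units as deposited, with an equal trimmed mean on each array, and a difference is tumour minus normal lung in log2(signal + 16) ± its standard error with n = 6 arrays a group. A gene stands for its probe set with the highest mean over the 12 arrays, and p-values are from limma, adjusted by Benjamini-Hochberg across the 45037 probe sets tested and called at 0.05. In pieces of whole tissue, fewer cells of a type and less RNA per cell cannot be told apart. The median signal per array was 126 to 150 in tumours and 151 to 164 in normal lungs, so that as deposited the median difference over all probe sets was -0.06, against 0.05 after quantile normalization and 0.13 after centring arrays on their medians. Some arrays stand apart, and the groups differ in sex-linked transcripts, while the labels give no sex. Tumours 1, 2, 3 and 5 carried the Y-linked transcript Eif2s3y (740 signal units or more) and all other arrays did not (27.4 or less), and the X-linked Xist was at 109 or less in those 4 tumours and 7877 or more in tumours 4 and 6 and all normal lungs. Sex and tissue are therefore partly confounded. Normal lungs 2 and 4 had mean log2 signals of 9.78 and 10.42 over 13 liver genes, against 5.71 to 7.01 in tumours and 5.99 to 7.81 in the other normal lungs.

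Of the 76 mitochondrial ribosomal protein genes 31 rose in tumours, most of them by less than 2-fold, 2 fell and 43 did not pass, where 12.2% of all genes rose and 17.5% fell, and among the 9457 genes within the members' range of mean signal 16.9% rose and 22.5% fell. The share of members that rose was 40.8%, and 66 of 76 differences lay above 0, compared with 44.5% of all genes. The median difference was 0.35, against -0.08 over all genes, and 2 members, Mrpl32 and Mrpl52, were at least 2-fold higher. For 18 members every tumour lay above every normal lung, and for none did every tumour lie below (6.77% and 11.8% of all genes, 9.41% and 16.1% of those in the same range of signal). Every member's mean signal was above that of the median probe set (162), and no filter removed any. A member stands for its brightest probe set, however, and over all genes taken that way the median was 326, with Mrps27 below it at 203.

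**Figure D1:**
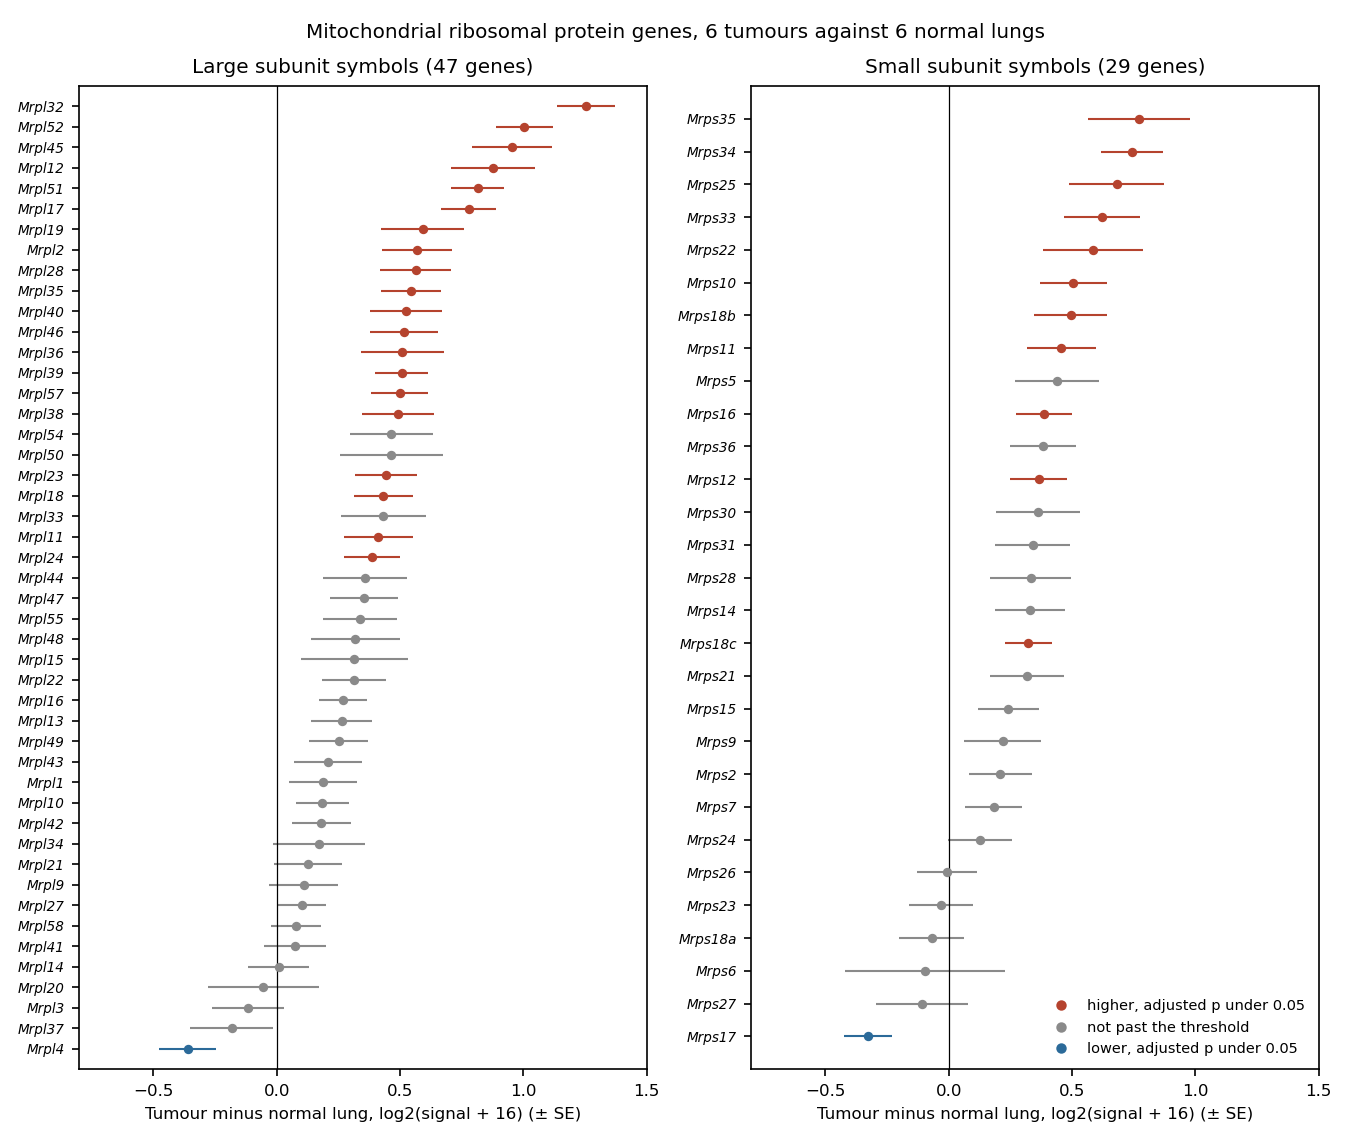
Difference between 6 tumours and 6 normal lungs (horizontal axis, log2(signal + 16), points with standard error) for each of the 47 large subunit and 29 small subunit genes, ordered by size. Red points passed the threshold upwards (20 large, 11 small), blue points downwards (1 each), and most grey points also lie right of 0.

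Both subunits held genes that rose. In the large subunit 20 of 47 genes rose and 1 fell, with a median difference of 0.36, and in the small subunit 11 of 29 rose and 1 fell, with a median of 0.33. The difference between subunits was not tested. The symbols do not fully follow the structure, since the products of Mrps18a and Mrps30 are known to sit in the large subunit of mammals. Mrps36, which counts by its symbol, encodes a protein now known as a part of the oxoglutarate dehydrogenase complex. Assigned by structure, 20 of 49 large and 11 of 26 small subunit genes rose. Homologues of bacterial ribosomal proteins rose in 18 of 47 cases and fell in 2, with a median of 0.32, and proteins found in mitochondrial ribosomes but not in bacterial ones rose in 13 of 28 cases, with a median of 0.46 and no fall. This grouping is from general knowledge, and the difference between the groups was not tested.

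Mrpl32, a homologue of a bacterial large subunit protein that is matured by the m-AAA protease of the inner membrane, rose most. Its signal in tumours was 1808 at the lowest, 2297 at the median and 2597 at the highest, against 767, 958 and 1080 in normal lungs. The groups were far apart, with the lowest tumour, number 6, well above the highest normal lung. The difference was 1.25 ± 0.12 (adjusted p = 2.21e-06), or 2.38-fold.

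Mrpl52, a large subunit protein without a bacterial counterpart, came next. Tumours had 2905 at the lowest, 3080 at the median and 3899 at the highest, against 1336, 1611 and 1899 in normal lungs, with no overlap. The difference was 1.003 ± 0.12 (adjusted p = 1.45e-05), and 2 of its 3 other probe sets rose too. Mrpl51, another such protein and among the 3 brightest members, had 3336, 3735 and 4587 in tumours, against 1966, 2191 and 2348 in normal lungs (0.82 ± 0.11, adjusted p = 4.89e-05). Its 2 other probe sets, both dim, did not pass, and with the mean of all its probe sets the difference was 0.39 (adjusted p = 0.105).

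Of 6 proteins placed at the exit of the peptide tunnel, grouped by role after their values were seen, 4 rose. The shares were 40.8% of all members and 12.2% of all genes. The set is not complete, since Gadd45gip1, described below, is left out, and the count depends on which proteins are included. Mrpl45, which holds the ribosome to the inner membrane next to that exit, had 947, 1429 and 1724 signal units in tumours (lowest, median and highest), against 522, 690 and 908 in normal lungs. The highest normal lung, number 3, lay close below the lowest tumour, number 1, and the difference was 0.95 ± 0.16 (adjusted p = 4.97e-04). Mrpl17, whose bacterial homologue lies at the tunnel exit, averaged 2152 ± 242 in tumours and 1247 ± 132 in normal lungs (SD, n = 6 each), a difference of 0.78 ± 0.11 (adjusted p = 1.09e-04). Its 2 other probe sets, with mean signals of 128 and 81.5, differed by -0.42 and -0.30 without passing, and the mean of its probe sets gave 0.02 (adjusted p = 0.935). Mrpl23 and Mrpl24, proteins of the rim of the exit, rose by less, at 0.44 ± 0.13 and 0.39 ± 0.11 (adjusted p = 0.0183 and 0.0208). The other rim proteins of this set, Mrpl22 and Mrpl47, differed by 0.31 ± 0.13 and 0.35 ± 0.14 and did not pass (adjusted p = 0.095 and 0.08).

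The stalk recruits translation factors to the ribosome. Mrpl12, its mobile protein, which has also been reported to bind the mitochondrial RNA polymerase, had 1397, 1736 and 2672 in tumours (lowest, median and highest), against 792, 1075 and 1104 in normal lungs. Tumours 2 and 6 were highest and tumours 1 and 3 lowest, all above every normal lung, with a difference of 0.88 ± 0.17 (adjusted p = 0.00131). Mrpl11, at the base of the stalk, rose by 0.41 ± 0.14 (adjusted p = 0.0449), and Mrpl10, which anchors Mrpl12, differed by 0.19 ± 0.11 (adjusted p = 0.251).

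**Figure D2:**
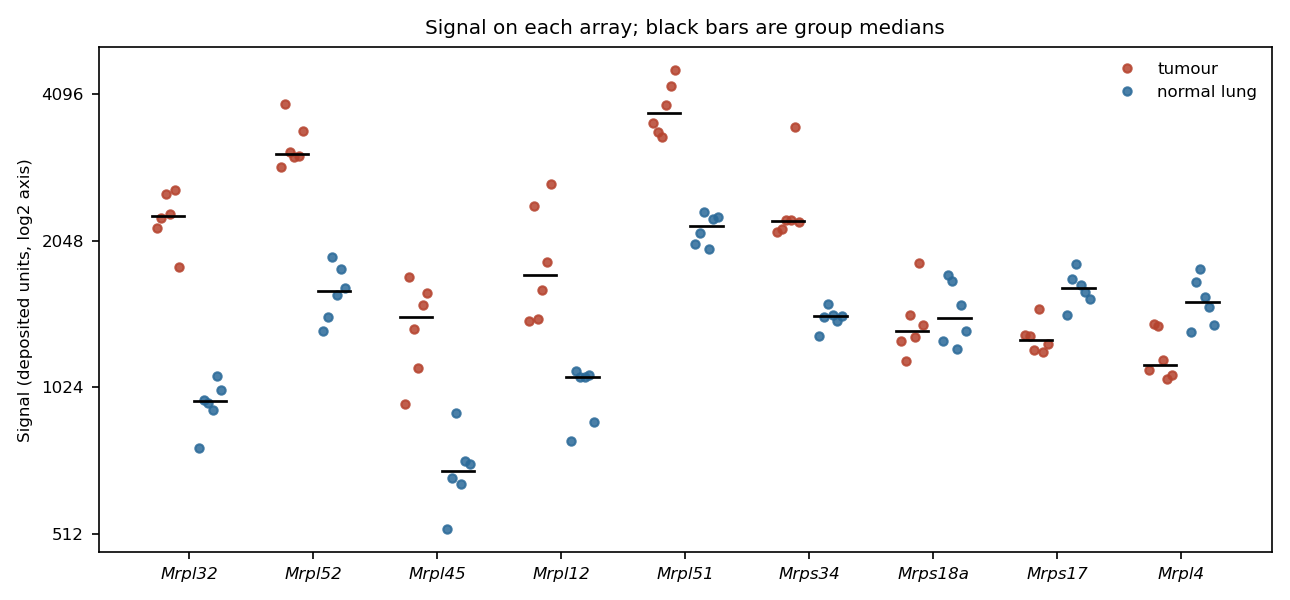
Signal on each array (vertical axis, deposited units on a log2 scale) for 9 member genes, with 6 tumours in red left of 6 normal lungs in blue and black bars at group medians. From Mrpl32 to Mrps34 no tumour falls within the range of normal lungs, Mrps18a overlaps broadly, and for Mrps17 and Mrpl4 tumours are lower with an overlap at the edge.

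Mrpl2, Mrpl3, Mrpl4 and Mrpl27 have bacterial homologues close to the catalytic centre or the tunnel, and differences among them were not tested. Mrpl2, close to the peptidyl transferase centre, averaged 1314 ± 160 in tumours and 889 ± 175 in normal lungs (SD, n = 6 each), a rise of 0.57 ± 0.14 (adjusted p = 0.00784). Mrpl3, also near the centre, differed by -0.12 ± 0.15 (adjusted p = 0.622), and Mrpl27 by 0.10 ± 0.098 (adjusted p = 0.514). Mrpl4, which lines the tunnel, was the large subunit gene that fell. It had 1062, 1137 and 1380 in tumours (lowest, median and highest), against 1326, 1529 and 1792 in normal lungs, a difference of -0.36 ± 0.11 (adjusted p = 0.0308). The groups overlapped at the edge, and the call was lost when any of normal lungs 2 to 5 or tumours 1, 4, 5 or 6 was left out (adjusted p up to 0.075). It was also lost with Eif2s3y as a covariate (adjusted p = 0.0694), without the intensity trend (0.0743) and with arrays centred on their medians (-0.17, adjusted p = 0.362). Mrpl58, a peptidyl-tRNA hydrolase built into the large subunit, differed by 0.08 ± 0.10 (adjusted p = 0.64), with 1547 to 1802 in tumours and 1393 to 1826 in normal lungs.

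Of the 10 genes with small subunit symbols whose proteins bacteria lack, 5 rose, none fell and 5 did not pass, where 12.2% of all genes rose. Mrps34, needed in mice for a stable small subunit, had 2129, 2246 and 3508 in tumours (lowest, median and highest), against 1303, 1432 and 1514 in normal lungs (0.74 ± 0.12, adjusted p = 4.23e-04). Tumour 5 was far above the rest, and the other 5 tumours lay between 2129 and 2258. Mrps33 followed the same pattern, with 1578, 1840 and 3239 in tumours, against 1063, 1311 and 1438 in normal lungs (0.62 ± 0.16, adjusted p = 0.00816). The groups did not overlap for either gene. Mrps35 (0.77 ± 0.21, adjusted p = 0.0123) and Mrps25 (0.68 ± 0.19, adjusted p = 0.0174) also rose. Mrps35 had 580.0 to 1377 in tumours and 399 to 604 in normal lungs, Mrps25 had 622 to 1650 in tumours and 519 to 696 in normal lungs, and for both the groups overlapped at the edge. Mrps22, mutated in a human disorder of the respiratory chain, lay just inside the threshold (0.59 ± 0.20, adjusted p = 0.0479), and Mrps36 just outside it (0.38 ± 0.14, adjusted p = 0.053). The Mrps22 call was lost when any 1 normal lung or any of tumours 2, 4 and 6 was left out, with adjusted p up to 0.0975.

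Of the 18 genes with small subunit symbols and bacterial homologues 6 rose, 1 fell and 11 did not pass. Those that did not pass include Mrps18a, whose product sits in the large subunit. Mrps12, a protein of the decoding centre, averaged 1582 ± 254 in tumours and 1217 ± 103 in normal lungs (SD, n = 6 each). Its lowest tumour, at 1352, lay just above the highest normal lung, at 1339, with a difference of 0.37 ± 0.12 (adjusted p = 0.032), which missed the threshold when normal lung 4, 5 or 6 or tumour 5 was left out (adjusted p up to 0.0769). Mrps10 (0.50 ± 0.14), Mrps11 (0.46 ± 0.14) and Mrps16 (0.39 ± 0.11) rose as well. Mrps17, which binds the 12S RNA in the body of the subunit, fell to 1296 ± 99.03 in tumours, against 1633 ± 134 in normal lungs (SD, n = 6 each). That difference was -0.33 ± 0.098 (adjusted p = 0.0228), 1 tumour lay within the range of normal lungs, and it missed the threshold when normal lung 3 was left out (adjusted p = 0.0572). The call was also lost with Eif2s3y as a covariate (adjusted p = 0.203), without the intensity trend (0.0689), with the replicate block (0.0696) and with arrays centred on their medians (-0.14, adjusted p = 0.366).

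Mammals have 3 paralogues of bacterial S18. Mrps18b, at 673, 930 and 1063 in tumours (lowest, median and highest) against 507, 631 and 761 in normal lungs, rose by 0.49 ± 0.15 (adjusted p = 0.0244), and missed the threshold when normal lung 1 or 2 or tumour 5 was left out (adjusted p up to 0.0586). Mrps18c, the closest in role to the bacterial protein, rose by 0.32 ± 0.096 (adjusted p = 0.0222) with no overlap, at 1690 to 2128 in tumours and 1373 to 1610 in normal lungs, and missed the threshold without normal lung 2 (adjusted p = 0.0523), with Eif2s3y as a covariate (0.227), without the intensity trend (0.0704) and with the replicate block (0.0762). Mrps18a, the paralogue in the large subunit, had 1157 to 1838 in tumours and 1225 to 1741 in normal lungs (-0.07 ± 0.13, adjusted p = 0.764). The differences between paralogues were not tested.

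Quantile normalization, which gives all arrays the same distribution, moved the members little. Then 37 genes rose and 2 fell, 24 and 1 in the large and 13 and 1 in the small subunit, where 13.9% of all genes rose and 16% fell (19.6% and 21.1% of those in the same range of signal). The median difference was 0.38 in all, 0.41 in the large and 0.36 in the small subunit, against 0.01 over all genes. All 31 genes called higher as deposited stayed so, and 6 were added, namely Mrpl54, Mrps5, Mrpl33, Mrps36, Mrpl47 and Mrpl16. The shift per gene ran from -0.08 to 0.17, and the sign turned for 3 genes with differences near 0, Mrps23 (-0.03 ± 0.13, adjusted p = 0.899 as deposited), Mrps26 (-0.01 ± 0.12, adjusted p = 0.976) and Mrps27. The probe sets of Mrps23 disagreed, since another one, with a mean signal of 751 against 838, rose as deposited by 0.41 ± 0.11 (limma, adjusted p = 0.0103). Mrpl4 and Mrps17 stayed lower, at -0.35 and -0.33 (adjusted p = 0.0275 and 0.0182). Centring arrays on their medians gave 57 rises and no fall, and the median difference over all probe sets was then 0.13. The share of all genes that rose under this scaling is not given here.

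**Figure D3:**
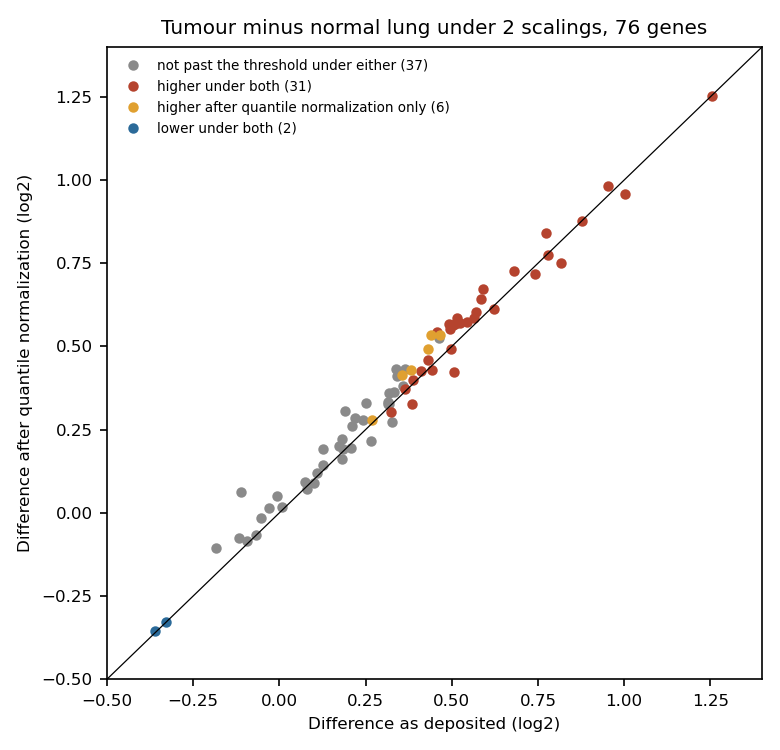
Difference of each of the 76 genes as deposited (horizontal axis) and after quantile normalization (vertical axis), both tumour minus normal lung on the log2 scale, with the line of equality. Points lie close to the line, and the 6 genes added by quantile normalization (orange) lie at 0.27 to 0.46 as deposited.

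Per array, the mean log2 signal over the 76 genes was 10.04 to 10.39 in tumours and 9.72 to 10.00 in normal lungs. Tumour 5 was highest, tumours 2 and 6 followed at 10.26 and 10.24, and tumours 3, 4 and 1 were at 10.10, 10.09 and 10.04. Normal lung 3, the highest of its group, lay just below tumour 1. In the large subunit the groups did not overlap (10.18 to 10.49 in tumours, 9.81 to 10.09 in normal lungs). In the small subunit tumour 1, at 9.83, lay below normal lung 3, at 9.86, and after quantile normalization the groups just failed to overlap (9.843 in tumour 1 against 9.838 in normal lung 3). Tumour 5 had 59 of the 76 genes above every normal lung and was the highest tumour for 30 genes, while tumour 4 had 38 genes above every normal lung and tumour 1 had 40. As shares of the members these were 77.6%, 50% and 52.6%, where 27.3%, 23.6% and 22% of all genes lay above every normal lung in the same tumours. Tumour 1 was the lowest tumour for 28 genes. The median SD of the members' log2 signal was 0.23 among tumours and 0.17 among normal lungs, and 58 of 76 genes varied more among tumours. Over all genes the median SD was 0.44 among tumours and 0.28 among normal lungs.

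**Figure D4:**
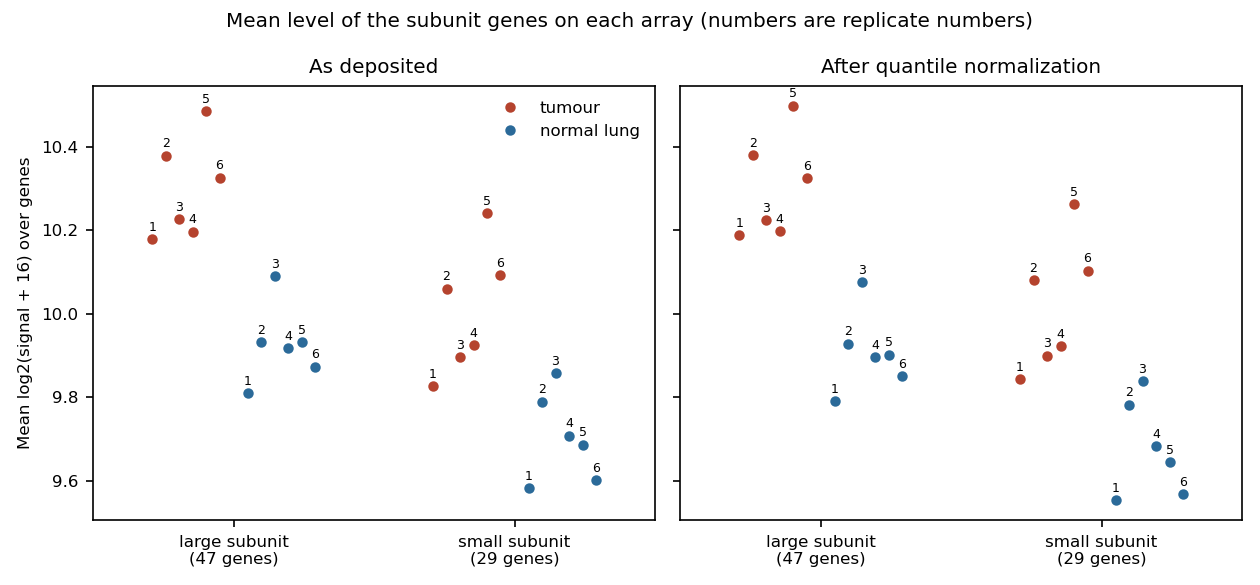
Mean log2(signal + 16) over the large and the small subunit genes on each array (vertical axis), as deposited and after quantile normalization, with tumours in red left of normal lungs in blue and replicate numbers above the points. Tumours 5, 2 and 6 are highest in both subunits, and normal lung 3 comes closest to the tumours.

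Bright and dim members both held genes that rose. Mrpl39, the brightest member and a large subunit protein without a bacterial counterpart, had 3617, 3905 and 4649.8 in tumours (lowest, median and highest), against 2292, 2959 and 3120.2 in normal lungs (0.51 ± 0.11, adjusted p = 0.00257). The 3 dimmest members did not pass, namely Mrps27 (-0.11 ± 0.19, adjusted p = 0.729), Mrpl1 (0.19 ± 0.14, adjusted p = 0.372) and Mrpl55 (0.34 ± 0.15, adjusted p = 0.124). A dimmer probe set of Mrpl1, with a mean signal of 241 against 357, did rise, by 0.76 ± 0.17 (limma, adjusted p = 0.0037) without overlap. Of the 38 brighter members 17 rose and 2 fell, and of the 38 dimmer members 14 rose and none fell.

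For 42 genes there was more than 1 probe set. Over all 156 probe sets of the members 47 rose and 2 fell, where 10.1% of all probe sets rose and 13.9% fell. No gene had probe sets called in opposite directions. Of the 25 other probe sets of called genes 17 had the sign of the gene's main probe set, and 4 of these passed. In 8 genes that did not pass by their brightest probe set a dimmer one rose. For Mrpl44, which in humans is mutated in a cardiomyopathy, the brightest probe set differed by 0.36 ± 0.17 (adjusted p = 0.15), and the 3 others rose by 0.69 to 0.76. For Mrpl15 the brightest differed by 0.31 ± 0.22 (adjusted p = 0.34), and 3 of the 7 others rose, by 0.47 to 0.87.

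A list of 5 genes with other symbols holds ribosomal proteins and Slirp, which is found with the ribosome but is known as an RNA-binding factor. Of the 5 genes 3 rose and none fell, with a median of 0.55, where 12.2% of all genes rose. Gadd45gip1, a large subunit protein at the tunnel exit, had 511, 694 and 998 in tumours (lowest, median and highest), against 284, 406 and 494 in normal lungs (0.85 ± 0.18, adjusted p = 0.00258), without overlap. Slirp, whose partner is Lrpprc, rose by 0.77 ± 0.12 (adjusted p = 1.60e-04), and Chchd1, of the small subunit, by 0.47 ± 0.12 (adjusted p = 0.0112). Dap3, the GTP-binding small subunit protein named for a role in cell death, differed by 0.32 ± 0.14 (adjusted p = 0.128), and Ptcd3 by 0.55 ± 0.20 (adjusted p = 0.0616).

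Factors that build or serve the ribosome included genes in both directions. Of 32 genes for assembly and RNA modification 8 rose (25%) and 2 fell (6.25%), with a median of 0.15. For comparison, 12.2% of all genes rose and 17.5% fell (16.9% and 22.5% within the members' range of signal). Fastkd2, which binds the 16S RNA, had 472, 571 and 787 in tumours (lowest, median and highest), against 145, 270 and 360 in normal lungs (1.21 ± 0.20, adjusted p = 4.44e-04). Grsf1 of the RNA granules (0.77 ± 0.12), Malsu1, which keeps the new large subunit apart (0.74 ± 0.14), and C1qbp (0.73 ± 0.15) rose too, and the helicase Dhx30 (-0.39 ± 0.12, adjusted p = 0.0248) and the GTPase Mtg2 (-0.48 ± 0.17, adjusted p = 0.0478) fell. Among 21 translation factors 4 rose (19%, close to the 16.9%) and none fell, with a median of 0.17. They were Oxa1l, the insertase that receives the products (0.69 ± 0.17), Tufm, the elongation factor that brings tRNAs (0.56 ± 0.15), Mtfmt, which formylates the initiator tRNA (0.50 ± 0.14), and Pde12 (0.53 ± 0.13).

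Of 21 genes for charging mitochondrial tRNAs 5 rose (23.8%) and 1 fell (4.76%), with a median of 0.09, where 12.2% of all genes rose and 17.5% fell. Iars2 (0.93 ± 0.16) and Vars2 (1.46 ± 0.32) led the rises, and Gatc was lower (-0.40 ± 0.12, adjusted p = 0.0233). Gars, which rose by 0.54 ± 0.14, also serves the cytosol. Of 18 genes for transcription and replication of mitochondrial DNA 6 rose (33.3%) and 1 fell (5.56%), with a median of 0.23. Hsd17b10, a part of the enzyme that trims the 5′ ends of mitochondrial tRNAs, rose by 1.37 ± 0.15 (adjusted p = 1.18e-05), as did Prorp, its nuclease (1.08 ± 0.20). Tfam, which packs mitochondrial DNA, differed by 0.21 ± 0.10 (adjusted p = 0.152) and Polrmt, the RNA polymerase, by 0.05 ± 0.13 (adjusted p = 0.845). The nuclease Mgme1 fell (-0.70 ± 0.18, adjusted p = 0.00943).

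Among 13 regulators of mitochondrial gene expression 3 rose (23.1%, against 12.2% of all genes) and none fell. Myc had 434, 562 and 2438 in tumours (lowest, median and highest), against 105, 159 and 387 in normal lungs (2.16 ± 0.44, adjusted p = 0.00188), with no overlap and a wide spread among tumours. Esrra (0.73 ± 0.14) and Yy1 (0.40 ± 0.11) were the others. Nrf1, the factor of the GCATGCGC motif, was at -0.32 ± 0.13 (adjusted p = 0.0853). Gabpa, of the GABP complex, was at -0.15 ± 0.12 (adjusted p = 0.435). Neither passed, and ETS factors outside that complex are not in this list. Genes of mitochondrial import, chaperones and mass rose in 18 of 28 cases with a median of 0.42 and no fall, among them Tomm20 (0.91 ± 0.13), Phb2 (1.08 ± 0.18) and Cs, citrate synthase (0.49 ± 0.099).

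**Figure D5:**
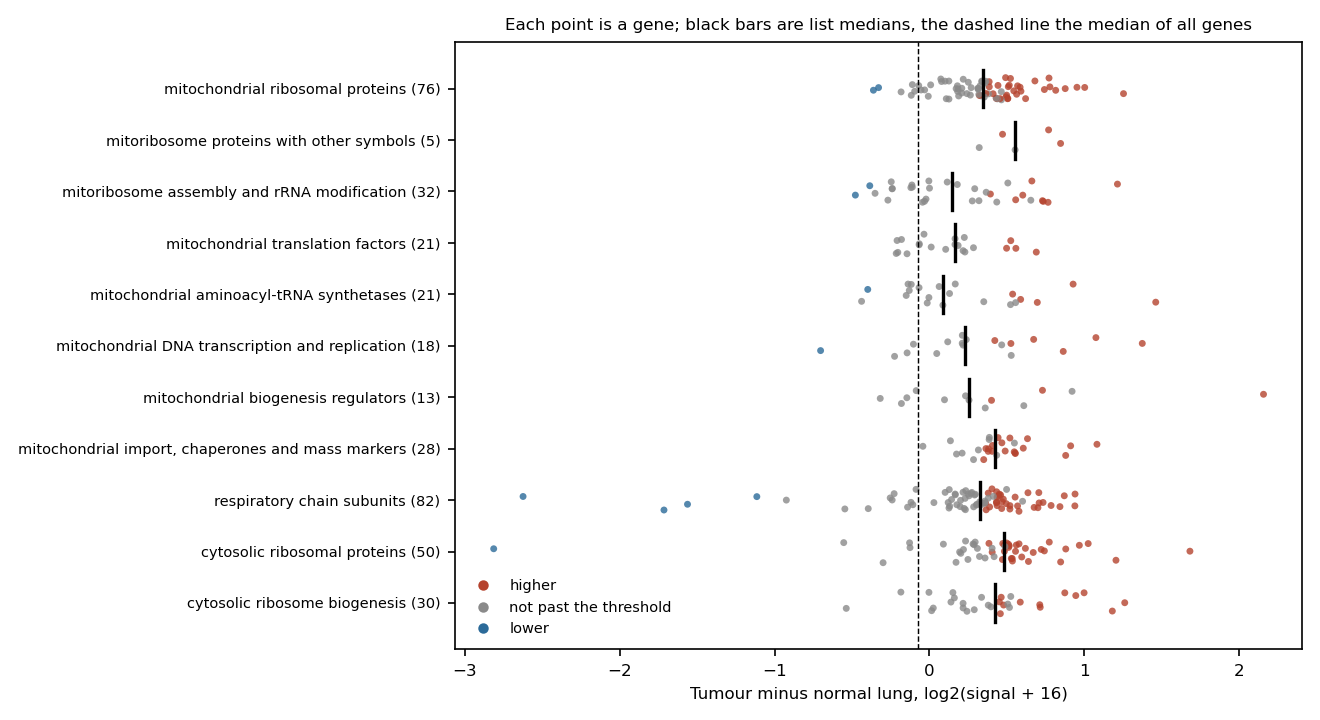
Tumour minus normal lung difference (horizontal axis, log2(signal + 16)) of each gene in the mitochondrial ribosomal proteins and 10 other lists, with genes past the threshold upwards in red and downwards in blue. Black bars are list medians, which all lie right of the median of all genes (dashed line, -0.08), and numbers after the names count the genes.

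Another pair of families whose products form large complexes was set beside the members. Among all genes 12.2% rose and 17.5% fell, and 13.9% and 16% after quantile normalization. Respiratory chain subunits rose in 33 of 82 cases and fell in 4, with a median of 0.33, and cytosolic ribosomal proteins rose in 29 of 50 and fell in 1, with a median of 0.48. After quantile normalization these counts were 24 higher and 6 lower (median 0.21) for the respiratory chain and 16 higher and 1 lower (median 0.25) for cytosolic ribosomal proteins. Both medians were thus smaller after this scaling, and that of the members was 0.38. Cox8b, Cox7a1, Cox4i2 and Cox6b2, which are forms of cytochrome oxidase subunits particular to heart, muscle, lung or testis, were the respiratory genes that fell. No difference between the families was tested.

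Genes of dividing cells moved in the same direction as the members, while 12.2% of all genes rose. Of 29 cell cycle genes 21 rose and none fell (median 1.17), and of 30 genes for building cytosolic ribosomes 12 rose and none fell (median 0.42). The mean log2 signal of the cell cycle list was 9.58 in tumour 6, 9.26 in tumour 5 and 9.07 in tumour 2, the 3 tumours with the highest level of members, and 8.89, 8.66 and 8.39 in tumours 3, 4 and 1, against 7.75 to 7.99 in normal lungs. Their part in the result was not tested.

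Markers of cell types moved with the groups too, where 12.2% of all genes rose and 17.5% fell. Of 17 epithelial markers 15 rose and none fell, with a summed signal of 65764 to 182476 in tumours and 35431 to 41548 in normal lungs. All 15 endothelial markers fell (7491 to 18752 in tumours, 79127 to 106189 in normal lungs), as did 11 of 11 smooth muscle markers (6447 to 10424, against 21382 to 35996), 11 of 12 ciliated markers (1029 to 4330, against 16018 to 20437) and 10 of 11 type I markers (36579 to 67497, against 126869 to 150042). Cardiac muscle, which sheathes pulmonary veins in mice and is rich in mitochondria, had 13 of 15 markers lower (2502 to 5082 in tumours, 26254 to 40662 in normal lungs), in the direction opposite to the members. This list includes the respiratory genes Cox7a1 and Cox8b, which fell, and Cox6a2, which did not pass. Alveolar macrophage markers rose in 6 of 13 cases and fell in 1, type II markers rose in 5 of 13, and 8 of 13 lymphocyte and 3 of 13 liver markers fell. Summed signals in tumours and normal lungs were 25734 to 103345 and 24671 to 36849 for macrophages, 144951 to 348544 and 169772 to 228195 for type II cells, 1622 to 3369 and 4278 to 15732 for lymphocytes, and 677 to 6496 and 1124 to 30773 for liver. No marker was listed at 0 on any array, and the part of cell types in the members' rise was not tested.

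Leaving out or adjusting for the arrays that stand apart lowered the number of calls more than the size of the differences. Without normal lungs 2 and 4, 16 members rose and none fell (median 0.36). Without the 4 tumours with Eif2s3y, 16 rose and none fell (median 0.27), and with Eif2s3y added to the fit as a covariate 14 rose and none fell (median 0.30). The shares of all genes that rose in these settings are not given here. The differences of Mrpl32 and Mrpl52 stayed past the threshold in all 3 settings. With the covariate, calls were also lost for Mrps33 (adjusted p = 0.0619), Mrpl24 (0.0717), Mrpl39 (0.0691), Mrps18b (0.208) and Mrps12 (0.244).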

How the data were processed

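Tumours (6) and normal lungs (6) each gave 1 Affymetrix array of total RNA, and the number of arrays limits the precision. What was deposited is an intensity, the MAS5 signal of each probe set, per the submitters' processing notes, and the version and settings are not given in the sources used here. The values were linear, and their trimmed mean was equal on all 12 arrays.

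The 64 array control probe sets were left out. Log2(signal + 16) of 45037 probe sets was fitted with limma 3.58.1 (lmFit, eBayes with an intensity trend) in R 4.3.3 with the tissue as the only term, and p-values were adjusted over all probe sets. Symbols came from the platform annotation, with 34945 probe sets listed with 1 symbol, 932 with several and 9160 with none, and only the first were used. Tables and figures were made with Python 3.11.15, pandas 2.3.3, numpy 2.4.6 and matplotlib 3.10.9, and the fit was tested on simulated data. Alternatives were quantile normalization, median centring, other offsets, a filter on dim probe sets, other choices of probe set, array weights, no trend, Eif2s3y as a covariate, a replicate block and arrays left out.

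Genes named were the 10 largest rises and all falls, the 3 brightest and dimmest members, those nearest the threshold, fixed members (Mrps18 paralogues, Mrpl12, Mrps12, Mrpl58, Dap3), those whose sign turned with scaling and up to 4 genes per list with the smallest adjusted p. Other genes (such as Mrpl2, Mrpl10, Mrpl22, Mrpl44, Tfam, Nrf1 and the divergent neighbours) were named for their role or position after their values were seen. Members and lists were chosen with earlier results of these data known.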

Additional observations from a re-analysis of the deposited data

Results flagged for a closer look

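In 58 groups of 6 arrays, 1 array of a group lay far from the other 5 in 4 cases. Chance flags about 1 in 20 groups, so about as many flags would arise by chance. Tumour 5 had a signal of 3508 for Mrps34, 3239 for Mrps33 and 2082 for Mrps12, each the highest of the tumours by a wide gap. Normal lung 1 had a signal of 281.5 for Mrpl1, apart from the other normal lungs. Tumour 5 was also the tumour with the highest mean over all members. The cause was not tested.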

How the results depend on the processing

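The medians of all members, of the large and of the small subunit stayed above 0 under every alternative run. Median centring gave 57 rises and 0 falls (35 and 0 large, 22 and 0 small), with medians of 0.54, 0.55 and 0.52. The median difference over all probe sets was then 0.13. Eif2s3y as a covariate gave 14 rises and 0 falls (10 and 0 large, 4 and 0 small) and 25 rises over the 138 genes of the 7 mitochondrial lists, against 47. Without normal lungs 2 and 4 there were 16 rises and 0 falls (12 and 0 large, 4 and 0 small) and 29 in the lists. Without the tumours with Eif2s3y there were 16 and 0 (11 and 0 large, 5 and 0 small) and 24 in the lists. Without the intensity trend 7 small subunit genes rose and 0 genes fell in either subunit. Settings with fewer arrays have less power, while the fits with the covariate, with median centring and without the trend used all 12 arrays. Why the counts changed was not tested. The shares of all genes that rose are not given for these settings.

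Samples with the same replicate number did not deviate together (correlations of -0.018 to 0.022), which alone cannot exclude that the numbers pair them. Tumours 1, 2, 3 and 5 carried Eif2s3y and the normal lungs of the same numbers did not, so these numbers do not pair samples of the same animal. For numbers 4 and 6 this cannot be told. With the replicate number as a block 26 members rose and 1 fell (0 in the small subunit).

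Leaving out 1 array at a time gave 25 to 33 rises and 0 to 2 falls in all members, 17 to 21 and 0 to 1 in the large subunit and 7 to 12 and 0 to 1 in the small one, with the lowest small subunit count without normal lung 6. Medians were 0.30 to 0.38, 0.31 to 0.41 and 0.30 to 0.37, and the lists had 37 to 54 rises.

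Signs turned for genes near 0, none of which passed, though another probe set of Mrps23 than its brightest rose as deposited. Mrps26 was at 0.0767 with the Eif2s3y covariate, 0.182 centred, 0.0503 after quantile normalization, 0.0136 without normal lungs 2 and 4 and 0.0892 without the tumours with Eif2s3y, and lay between -0.0463 and 0.0568 when 1 array was left out. Mrps23 was at 0.158 centred, 0.0146 after quantile normalization, 0.0378 without normal lungs 2 and 4 and 0.195 with the mean of probe sets, and lay between -0.115 and 0.0182 with 1 array left out. Mrps27 was at 0.0788 centred and 0.0627 after quantile normalization, and Mrps18a at 0.12 centred. Mrpl58 was at -0.0166 without the tumours with Eif2s3y and -0.308 with the mean of probe sets.

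The choice of the probe set with the highest mean log2 signal was added after seeing the data and changed no member's probe set. Dim probe sets limit what the mean over probe sets can show.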

Other observations

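Mrpl30 and Mrpl53 were measured only on probe sets that the annotation shares with another gene, so they are not among the 76 genes. The bright probe set of Mrpl30, shared with Gm6238, had a signal of 3737 ± 528 in tumours and 1745 ± 251 in normal lungs (SD, n = 6 each), with a difference of 1.09 ± 0.13 (limma, adjusted p = 1.51e-05). A dim probe set of the same pair had 49.7 ± 24.1 in tumours and 106 ± 38.5 in normal lungs (adjusted p = 0.0666 by limma). The probe set of Mrpl53, shared with Ccdc142, had 1825 ± 407 in tumours and 1387 ± 194 in normal lungs, with a difference of 0.37 ± 0.15 (limma, adjusted p = 0.0842). A probe set shared by Nme3 and Mrps34 was higher in tumours by 0.42 ± 0.14 (limma, adjusted p = 0.0488), and which gene its signal comes from cannot be told apart.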
